A study of Mus musculus with 8 samples.

Results

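The 10 genes followed here mark successive stages of neutrophil formation and were measured on 8 microarrays of sorted mouse hematopoietic stem and progenitor cells. They were the primary granule genes Mpo, Elane, Prtn3 and Ctsg (4 genes) and the later genes S100a8, S100a9, Camp, Ngp, Ltf and Lcn2 (6 genes). Each had exactly 1 probe set carrying that 1 symbol, so the 10 genes stand for 10 of 23521 probe sets with a single symbol and 10 of 22180 named genes. The genes were chosen by their measured values, since earlier results of these same arrays showed them high in the arrays numbered replicate 1, so their levels by replicate number and by population are a description. The name late genes is used here for the second group, because S100a8 and S100a9 encode cytosolic calcium-binding proteins and not granule proteins, whereas Camp, Ngp, Ltf and Lcn2 encode proteins of the secondary granules.

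The cells came from bone marrow of C57/Bl6 mice whose age is given as 8 weeks. Of these, 2 arrays (numbered 1 and 3) hold LT-HSC, the long-term stem cells, sorted as CD48-CD150+CD34-Lin-Sca1+Kit+, 3 hold ST-HSC, the short-term stem cells, sorted as CD48-CD150+CD34+ within the same Lin-Sca1+Kit+ gate, and 3 hold multipotent progenitors (MPP), sorted as CD48+CD150-CD34+ within it. The series asks how the chromatin remodeler Chd7 is expressed in such cells, and none of the groups carries a mutation in the labels. The labels conflict on handling: each sample is described as untreated, whereas the treatment text common to all samples has cells kept in DMSO for 2 hours and then passed through 2 rounds of transplanted recipients, of 1 year and 3 months. They also do not say whether the arrays hold separate animals or pools, so a p-value here reflects how far these particular samples scatter, part of which may be technical. Values are log2 RMA signals, a scale on which 1 unit is a doubling, and levels of different genes are not compared because probe sets differ in their response.

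Neutrophils load their granules in waves as they mature. Primary, or azurophil, granules are filled at the promyelocyte stage with myeloperoxidase and the serine proteases neutrophil elastase, proteinase 3 and cathepsin G, and transcripts of these genes are already known from early progenitors with myeloid potential. Secondary, or specific, granules are filled later, at the myelocyte and metamyelocyte stages, under the control of the transcription factor C/EBP epsilon, and the S100A8 and S100A9 proteins accumulate in the cytosol of maturing and mature neutrophils. The Lin- gate is designed to leave out mature cells, but the make-up of the lineage antibody mix was not given here.

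The upstream sequence of 6 of the genes is shown with motifs of factors known to act at granule genes, PU.1 (encoded by Spi1) and C/EBP proteins. The late genes shown, Ngp, Ltf and Lcn2, each hold a C/EBP match, which S100a8 and Camp do not. Each run is the 250 bases before the RefSeq transcript start, 5′ to 3′ on the gene's strand, in build GRCm38.p6, with capitals marking matches on either strand to the PU.1 core GAGGAA or to the C/EBP pattern TTNNGCAA.
Mpo (chr11:87793534-87793783, plus strand): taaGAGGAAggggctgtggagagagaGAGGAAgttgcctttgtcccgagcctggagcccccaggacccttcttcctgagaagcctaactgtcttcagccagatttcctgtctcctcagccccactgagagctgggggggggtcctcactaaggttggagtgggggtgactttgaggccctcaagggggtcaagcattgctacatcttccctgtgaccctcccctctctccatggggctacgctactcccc
Elane (chr10:79886062-79886311, plus strand): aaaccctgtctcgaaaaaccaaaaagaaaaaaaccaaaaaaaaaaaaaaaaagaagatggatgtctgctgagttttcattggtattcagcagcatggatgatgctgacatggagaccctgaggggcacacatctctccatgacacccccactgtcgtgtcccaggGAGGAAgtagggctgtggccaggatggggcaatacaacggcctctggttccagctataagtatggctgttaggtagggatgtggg
Prtn3 (chr10:79879417-79879666, plus strand): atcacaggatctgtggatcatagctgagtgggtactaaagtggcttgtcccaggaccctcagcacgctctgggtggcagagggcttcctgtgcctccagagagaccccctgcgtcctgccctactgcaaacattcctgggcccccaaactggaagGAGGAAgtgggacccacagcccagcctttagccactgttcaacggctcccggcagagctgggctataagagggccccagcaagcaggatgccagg
Ngp (chr9:110419558-110419807, plus strand): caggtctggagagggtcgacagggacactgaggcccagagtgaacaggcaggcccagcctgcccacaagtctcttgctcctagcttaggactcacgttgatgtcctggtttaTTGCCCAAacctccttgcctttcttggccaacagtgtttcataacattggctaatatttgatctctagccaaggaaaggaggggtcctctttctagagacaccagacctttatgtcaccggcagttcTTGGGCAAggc
Ltf (chr9:111019042-111019291, plus strand): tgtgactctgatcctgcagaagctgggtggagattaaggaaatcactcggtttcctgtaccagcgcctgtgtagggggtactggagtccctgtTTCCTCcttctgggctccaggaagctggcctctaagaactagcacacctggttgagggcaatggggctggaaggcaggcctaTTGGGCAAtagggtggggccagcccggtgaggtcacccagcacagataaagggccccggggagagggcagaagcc
Lcn2 (chr2:32387740-32387989, minus strand): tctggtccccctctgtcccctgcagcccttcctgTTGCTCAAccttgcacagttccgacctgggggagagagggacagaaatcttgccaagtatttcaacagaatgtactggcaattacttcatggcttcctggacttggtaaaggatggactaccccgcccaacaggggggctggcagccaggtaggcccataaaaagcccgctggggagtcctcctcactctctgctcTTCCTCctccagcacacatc

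All 10 genes had an entry among the 32851 promoters of the RefSeq table. The PU.1 core was found in 4 of 4 primary granule genes and in 3 of 6 late genes (S100a8, Ltf and Lcn2), against 23.3% of all promoters. The C/EBP pattern was found in none of the 4 primary granule genes and in 4 of 6 late genes (S100a9, Ngp, Ltf and Lcn2), against 9.56% of all promoters. Ngp held it at 2 places, the nearer one starting 11 bases before the transcript start. The full palindrome TTGCGCAA stood in 0.164% of promoters and in none of the 10. The RUNX core TGTGGT was found in Ctsg and S100a9 (14.0% of all promoters), and the short MYB pattern AACNG, present in 74.2% of all promoters, was found in all 10. The 5 patterns were searched because they are textbook motifs of granulocyte factors, the 2 C/EBP forms overlap each other, and a match in these letters is a description and not a bound site.

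The arrays differed in ways that bear on what follows. Replicate 1 of LT-HSC and replicate 1 of ST-HSC were the least like the others, with median correlations to the other arrays of 0.956 and 0.968 against 0.976 to 0.985 for the remaining 6, and with the narrowest value distributions (interquartile ranges of 2.49 and 2.73). MPP replicate 1 did not stand apart (0.982). Of 4 gate markers, Kit and Slamf1 followed the labels and Cd34 and Cd48 did so only in part. Kit lay between 9.84 and 10.45 on every array, and Slamf1, which encodes CD150, lay between 7.25 and 7.78 on the 5 stem cell arrays and between 4.77 and 5.46 on the MPP arrays. Cd34 was 8.50 in LT-HSC replicate 1 but 10.20 in LT-HSC replicate 3, a level like those of ST-HSC (9.55 to 10.15), although both LT-HSC arrays carry the CD34- label. Cd48 was 7.49 in ST-HSC replicate 1, labelled CD48-, above the 6.65 and 6.96 of MPP replicates 2 and 3, labelled CD48+, and LT-HSC replicate 3 (6.63) was level with MPP replicate 2. Flt3, a progenitor gene outside the labelled sort, was 8.49 in LT-HSC replicate 3 against 5.84 in LT-HSC replicate 1. It was 6.86 to 7.19 in ST-HSC and 9.43 to 9.80 in MPP. The stem cell genes Mecom and Procr were highest in LT-HSC replicate 3 (8.83 and 8.80). Replicate 1 of LT-HSC and of ST-HSC are called the arrays that stood apart. Calls of members, other neutrophil genes and named markers in the replicate step are given with and without them. Marker list means, array orders and nearest profiles are given only with them.

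Among the primary granule genes, Mpo, which encodes myeloperoxidase, measured 9.65 and 8.74 in LT-HSC replicates 1 and 3, 9.83, 9.66 and 9.59 in ST-HSC replicates 1 to 3, and 10.14, 9.35 and 9.67 in MPP replicates 1 to 3. LT-HSC replicate 3 was the lowest array and MPP replicate 1 the highest, a span of 2.64-fold, and the 3 populations overlapped. Elane, the gene of neutrophil elastase, measured 8.54 and 7.72 in LT-HSC, 9.23, 8.80 and 8.38 in ST-HSC and 8.89, 7.99 and 8.27 in MPP, in the same replicate order. Its lowest array was again LT-HSC replicate 3 and its highest ST-HSC replicate 1, 2.84-fold apart. Ctsg, the gene of cathepsin G, measured 8.98 and 8.63 in LT-HSC, 9.76, 9.32 and 9.42 in ST-HSC and 9.47, 8.43 and 9.04 in MPP. The 3 ST-HSC arrays of Ctsg lay above both LT-HSC arrays, and the span over all arrays was 2.51-fold. Prtn3, the gene of proteinase 3, which lies beside Elane in the genome, measured 8.02 and 7.96 in LT-HSC, 7.85, 8.40 and 8.27 in ST-HSC and 8.22, 8.26 and 8.53 in MPP. It was the flattest of the 10 genes (1.60-fold over the 8 arrays), and its lowest array was ST-HSC replicate 1, one of the highest for the other primary granule genes.

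The late genes spread much further. S100a8 measured 11.09 and 6.61 in LT-HSC replicates 1 and 3, 11.29, 9.32 and 8.26 in ST-HSC replicates 1 to 3 and 10.60, 9.53 and 9.86 in MPP replicates 1 to 3. S100a9, whose protein pairs with S100A8 as calprotectin, measured 10.49 and 6.87 in LT-HSC, 10.35, 8.21 and 7.57 in ST-HSC and 10.09, 8.99 and 8.86 in MPP. For both genes the 3 arrays numbered replicate 1 were the 3 highest of 8 and LT-HSC replicate 3 was the lowest, at spans of 25.6-fold for S100a8 and 12.3-fold for S100a9.

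Camp, the gene of the antimicrobial peptide cathelicidin, had the widest span of the 10 genes at 36.3-fold. It measured 8.63 and 4.01 in LT-HSC, 9.19, 4.61 and 4.28 in ST-HSC and 8.17, 6.36 and 5.69 in MPP. Replicates 2 and 3 of ST-HSC and replicate 3 of LT-HSC lay between 4.01 and 4.61, not far above the level of 3.88 that served as the lower limit for testing. Ngp, which encodes neutrophilic granule protein, measured 7.39 and 3.97 in LT-HSC, 7.92, 4.60 and 4.48 in ST-HSC and 6.94, 4.86 and 5.21 in MPP. Ltf, the gene of lactoferrin, an iron-binding protein of secondary granules, measured 6.10 and 4.31 in LT-HSC, 6.07, 4.19 and 4.11 in ST-HSC and 5.28, 4.47 and 4.48 in MPP. Lcn2, which encodes the siderophore-binding lipocalin 2, measured 6.27 and 4.58 in LT-HSC, 7.24, 4.51 and 4.43 in ST-HSC and 5.79, 4.45 and 5.07 in MPP. In each of these 4 genes the arrays numbered replicate 1 were again the 3 highest, and the spans were 15.4-fold for Ngp, 3.97-fold for Ltf and 7.03-fold for Lcn2. RMA values this near the bottom of the scale compress differences, so the folds of the dim genes may be understated.

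**Figure D1:**
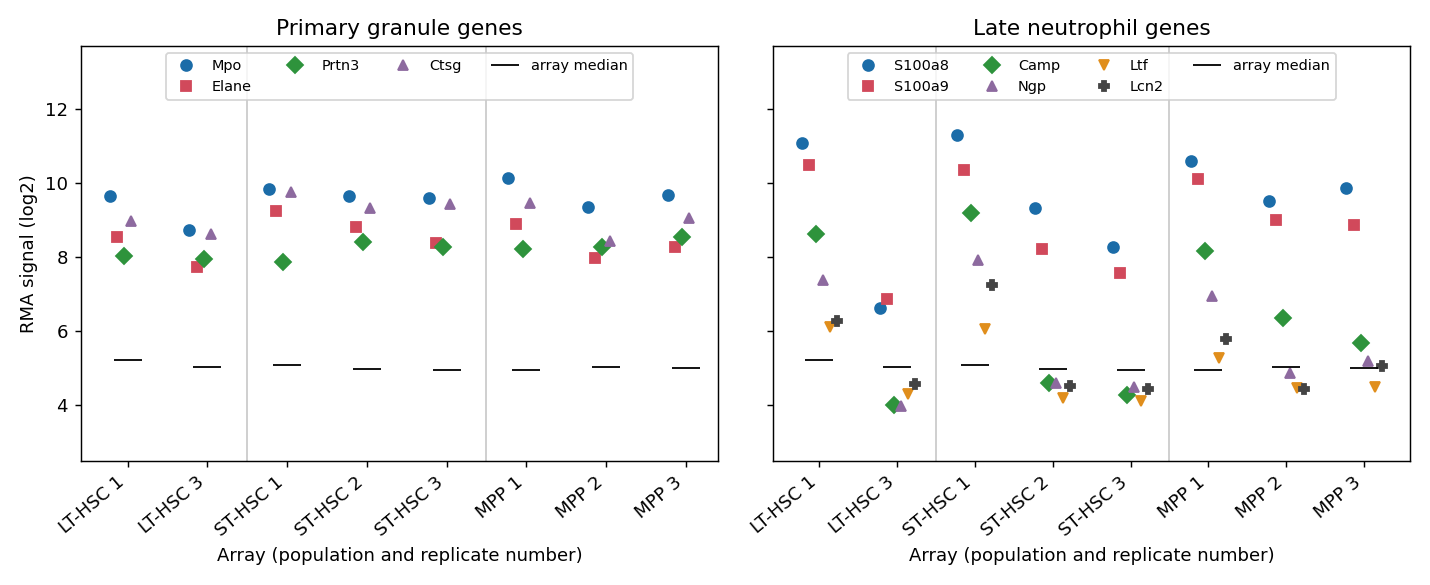
The log2 RMA signal of each of the 4 primary granule genes (left) and 6 late genes (right) is plotted for each of the 8 arrays, with 1 point per gene and array and a bar at the median of all probe sets. The primary granule genes stay between 7.72 and 10.14 throughout, whereas Camp, Ngp, Ltf and Lcn2 sit below the bar in LT-HSC replicate 3 and in ST-HSC replicates 2 and 3 and above it in all 3 arrays numbered replicate 1.

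Set against the median of its own array, the count of late genes above that median moved with the replicate number. It was 6 of 6 in each of the 3 arrays numbered replicate 1, 2 of 6 (S100a8 and S100a9) in LT-HSC replicate 3 and in ST-HSC replicates 2 and 3, 3 of 6 in MPP replicate 2 and 5 of 6 in MPP replicate 3. The 4 primary granule genes were above the median on all 8 arrays. The array median serves here only as a fixed mark, since a probe set's distance from it also depends on its probes.

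The mean of the 4 primary granule genes minus the mean of the 6 late genes was 0.47 and 3.21 in LT-HSC replicates 1 and 3, 0.49, 3.14 and 3.39 in ST-HSC replicates 1 to 3, and 1.37, 2.06 and 2.35 in MPP replicates 1 to 3. Only the change of this difference from array to array carries meaning, because its size includes the unlike response of the probe sets. Its population mean was 1.84 ± 1.93 (SD, n = 2) for LT-HSC. ST-HSC had a mean of 2.34 ± 1.61 (SD, n = 3). For MPP it was 1.93 ± 0.51 (SD, n = 3), so the population means differed by less than the smallest of these spreads. With the replicate 1 arrays left out it was 3.21 in the single LT-HSC array, 3.27 as the mean of 2 ST-HSC arrays and 2.21 as the mean of 2 MPP arrays. Almost all of the movement came from the late genes: their mean ranged from 5.06 (LT-HSC replicate 3) to 8.68 (ST-HSC replicate 1), against 8.26 (LT-HSC replicate 3) to 9.18 (MPP replicate 1) for the primary granule genes.

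**Figure D2:**
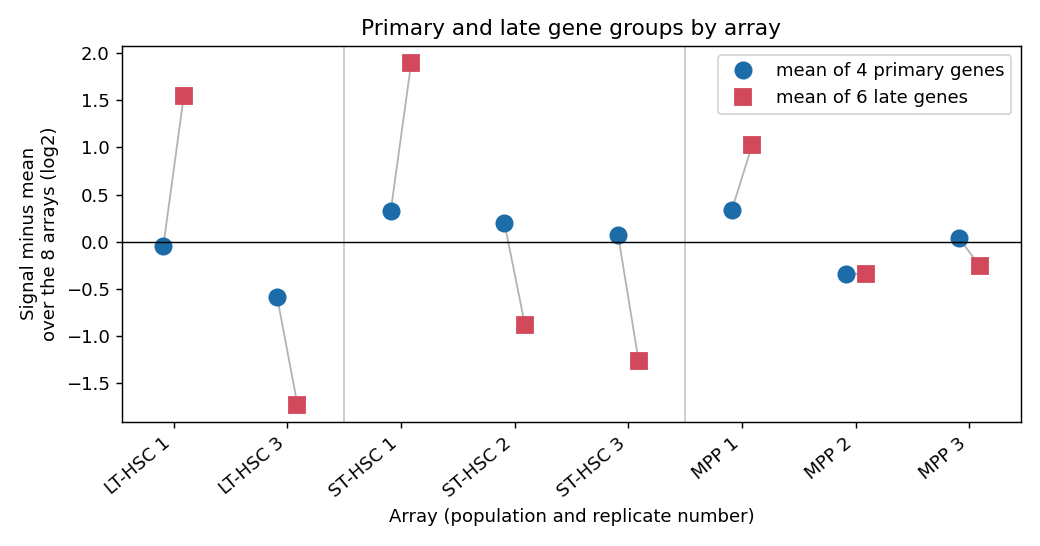
For each of the 8 arrays the mean log2 signal of the 4 primary granule genes and of the 6 late genes is plotted after subtracting each group's mean over all arrays, with a thin line joining the pair. The late genes run from -1.73 (LT-HSC replicate 3) to 1.89 (ST-HSC replicate 1) and the primary granule genes from -0.58 to 0.34, and in MPP replicate 2 both stand at -0.34.

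Within each population, replicate 1 was then set against the other arrays. The late genes averaged 3.27 higher in LT-HSC replicate 1 (9.64-fold, against the single other array), 2.96 higher in ST-HSC replicate 1 (7.80-fold, against 2 arrays) and 1.33 higher in MPP replicate 1 (2.51-fold, against 2 arrays). The primary granule genes averaged 0.54, 0.19 and 0.49 higher (1.45-, 1.14- and 1.40-fold) in the same order. Camp differed most among the late genes, by 24.6-fold in LT-HSC, 26.8-fold in ST-HSC and 4.41-fold in MPP. S100a8 differed by 22.2-fold in LT-HSC, 5.66-fold in ST-HSC and 1.87-fold in MPP, and Ngp by 10.7-, 10.4- and 3.75-fold. The smallest late gene differences were those of Lcn2 in LT-HSC (3.23-fold) and of Ltf in ST-HSC (3.78-fold) and MPP (1.75-fold). All 6 late genes differed by at least 1 log2 unit in LT-HSC and in ST-HSC, and 4 of 6 did so in MPP, where S100a8 (0.90) and Ltf (0.81) did not. For scale, 1.56%, 1.18% and 0.489% of all tested genes reached that size in LT-HSC, ST-HSC and MPP.

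Of the primary granule genes, none reached 1 log2 unit in any population. Elane differed by 0.81, 0.64 and 0.76 and Mpo by 0.91, 0.21 and 0.63 in LT-HSC, ST-HSC and MPP. Ctsg differed by 0.35, 0.39 and 0.74. Prtn3 went its own way, at 0.07 in LT-HSC, -0.48 in ST-HSC and -0.18 in MPP. Replicate 1 was the highest array of every population for 9 of the 10 genes, Prtn3 being the exception, where 4.89% of all tested genes had that order. The 3 arrays numbered replicate 1 lay above all 5 others, across populations, for 6 of 6 late genes and 0 of 4 primary granule genes, where the background was 2.07%. A step of at least 1 log2 unit in every population was met by S100a9, Camp, Ngp and Lcn2, among 13 of 17576 tested genes (0.074%). Nothing is read from these counts, since the replicate pattern is what brought the genes together.

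**Figure D3:**
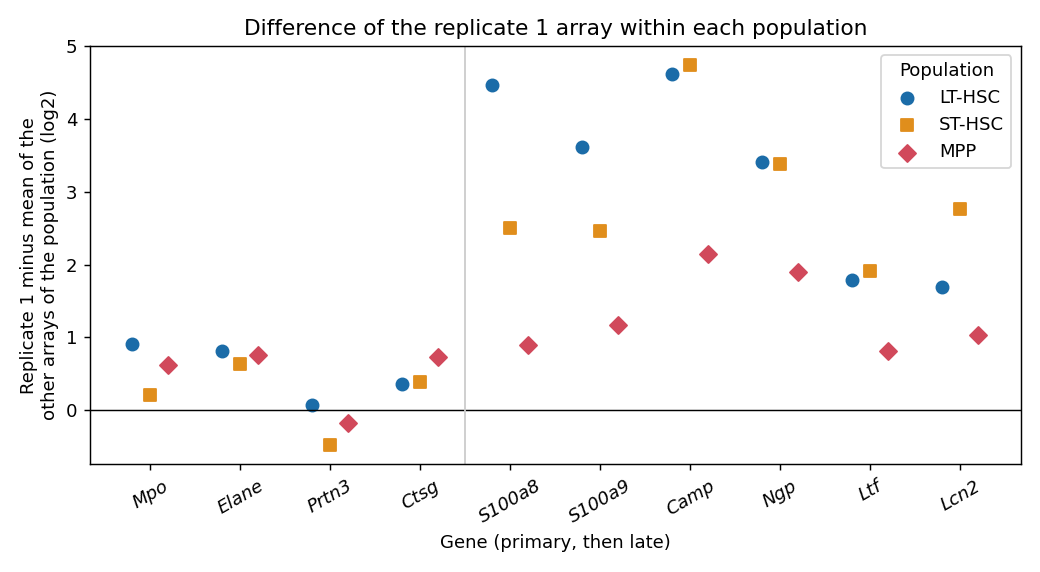
For each of the 10 genes the log2 signal of the replicate 1 array minus the mean of the other arrays is plotted separately for LT-HSC, ST-HSC and MPP. The late genes lie between 0.81 and 4.74 and the primary granule genes between -0.48 and 0.91.

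A limma fit over all 17576 tested genes, with population and replicate number as terms, gave the size and error of the step from replicates 2 and 3 to replicate 1 over all populations. It was 3.68 (SE 0.35) for Camp, 2.85 (SE 0.25) for Ngp, 2.35 (SE 0.40) for S100a8, 2.22 (SE 0.28) for S100a9, 1.88 (SE 0.26) for Lcn2 and 1.47 (SE 0.20) for Ltf. For the primary granule genes it was 0.72 (SE 0.17) for Elane, 0.56 (SE 0.17) for Mpo, 0.56 (SE 0.16) for Ctsg and -0.22 (SE 0.17) for Prtn3. Elane and all 6 late genes, 7 of 10, passed the limma threshold of an adjusted p under 0.05, where 1.83% of all genes passed it in either direction and 0.58% as higher in replicate 1. Since the genes were picked for being high in these same arrays, this count describes the choice of genes and is no test of it. Leaving out ST-HSC replicate 1 left 4 genes past the threshold (S100a9, Camp, Ngp and Lcn2). With single arrays left out, the number of all genes past it ran from 74 to 1644. Without both arrays that stood apart, most members lost their call. MPP replicate 1 was then the only replicate 1 array, so the step was one within MPP, at 2.14 for Camp. Among single arrays left out, Elane kept its call only when ST-HSC replicate 2 or MPP replicate 3 was the array left out. It also lost its call with each array centred on its median (limma adjusted p 0.154) and with no filter on dim genes (0.0573), and S100a8 lost its call with quantile normalization (0.0893). The direction of the late genes' step did not change under any alternative that was run.

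The populations were compared next, which is the comparison the labels set up. In the fit with 1 mean per population, no member passed the threshold in MPP against ST-HSC, in MPP against LT-HSC or in ST-HSC against LT-HSC, where 0.193%, 0.125% and 0.933% of all genes did. At an unadjusted p under 0.05, limma had 0, 0 and 1 of the 10 genes, the last being Ctsg, which was 0.69 (SE 0.28) higher in ST-HSC than in LT-HSC with a limma adjusted p of 0.394. The errors were wide for the late genes because replicate 1 enters the spread of every population. Camp, for example, was 0.71 (SE 1.34) higher in MPP than in ST-HSC, and S100a8 was 1.15 (SE 1.09) higher in MPP than in LT-HSC. The primary granule genes had errors of 0.18 to 0.33 in these comparisons, and the largest of their differences besides that of Ctsg was 0.67 (SE 0.33) for Elane in ST-HSC against LT-HSC.

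The replicate number was then added as a block, which takes arrays of the same number as paired. For LT-HSC, which holds only replicates 1 and 3, such a pairing was not established. With the block, Ctsg passed in ST-HSC against LT-HSC, at 0.88 (SE 0.21) and a limma adjusted p of 0.0368, where 2.69% of all genes passed. Over that result's alternatives the limma adjusted p ran from 0.0368 to 0.751, and the block was the only one of them under 0.05. The next lowest adjusted p with the block in that comparison was 0.0751, for Elane. With the block no member passed in MPP against ST-HSC (1.52% of all genes) or in MPP against LT-HSC (0.893%).

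With all 3 arrays numbered replicate 1 left out, 5 of the 6 late genes, all but Lcn2, had both remaining MPP arrays above both remaining ST-HSC arrays, against 0 of 4 primary granule genes and 21.1% of all genes. The MPP levels were 2.99-fold those of ST-HSC for Camp, 2.05-fold for S100a9, 1.87-fold for S100a8, 1.41-fold for Ngp and 1.25-fold for Ltf. Camp passed the limma threshold in this comparison, at 1.58 (SE 0.24) and an adjusted p of 0.0474, where 0.569% of all genes passed. None of the other genes passed in any of the 3 population comparisons of that fit (0.0853% of all genes in MPP against LT-HSC and 0.398% in ST-HSC against LT-HSC), in which the lone LT-HSC array is assumed to vary like the others. The order in which every remaining MPP array exceeded every ST-HSC array and these exceeded LT-HSC held for 4 of 6 late genes, against 3.74% of all genes. The groups here have 2, 2 and 1 arrays. In bulk samples such as these, fewer cells of a type and less RNA per cell cannot be told apart.

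Other genes of neutrophil maturation were read from the same fits, from a list drawn up with earlier results of these arrays known, so its counts are no independent support. Of 55 listed, 52 had a probe set and 48 were tested, and 10 of the 48 were higher in replicate 1 with none lower, where 0.58% of all genes were called higher, at a median step of 0.34 against -0.02 over all genes. These included Stfa2l1, a stefin A family protease inhibitor, at 1.72 (SE 0.28), and Chil3, a chitinase-like protein of myeloid granules, at 1.65 (SE 0.25). Wfdc21 rose by 1.55, Retnlg, a resistin-like cytokine of neutrophils, by 1.39, Ifitm6 by 1.32, and Mmp8, the collagenase stored in secondary granules, by 1.30. Lyz2, the lysozyme gene found in both granule classes and in monocytes and named here for that role, lay between 9.20 and 9.65 on all arrays and had a step of 0.05 (SE 0.16). The count fell to 3 (Cybb, Mmp8 and Wfdc21) without ST-HSC replicate 1, and the calls were lost without both arrays that stood apart. It was 33 with array weights, where 6243 of all 17576 genes were called. Over all genes the calls ran from 74 to 1644 with single arrays left out. Between the populations none of the 48 passed in any of the 3 comparisons.

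The 16 listed regulators of granule genes, transcription factors and cytokine receptors, were all tested, and in these fits none passed the threshold in the replicate term or in the population comparisons, with a median replicate step of -0.20. Cebpe, the gene of C/EBP epsilon, was singled out after its values were seen: it measured 6.72, 6.59 and 6.60 in the LT-HSC, ST-HSC and MPP arrays numbered replicate 1 and 6.08 to 6.24 in the other 5 arrays, without overlap. Its step was 0.47 (SE 0.15), and its limma adjusted p of 0.167 ranged from 0.0027 to 0.879 over the alternatives. Spi1, the gene of PU.1 and also named for its role, had a step of -0.47 (SE 0.16). Its limma adjusted p of 0.189 ranged from 0.000555 to 1.00 over the alternatives, and it was called in 2 of 15, with array weights and without MPP replicate 1. Etv6, a transcriptional repressor of the ETS family, had a step of -0.35 (SE 0.16), with a limma adjusted p of 0.394 that ranged from 0.000693 to 1.00 and was under 0.05 in 1 alternative. Among 15 tested proteins that bind, process or package the members' products, 1 passed. This was Cybb, the catalytic subunit of the phagocyte oxidase, at 1.20 (SE 0.16), which is also on the neutrophil list. Its partner subunit Cyba had a step of -0.31 (SE 0.16), and the granule proteoglycan Srgn, which holds proteases in the granule, one of -0.24 (SE 0.15).

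**Figure D4:**
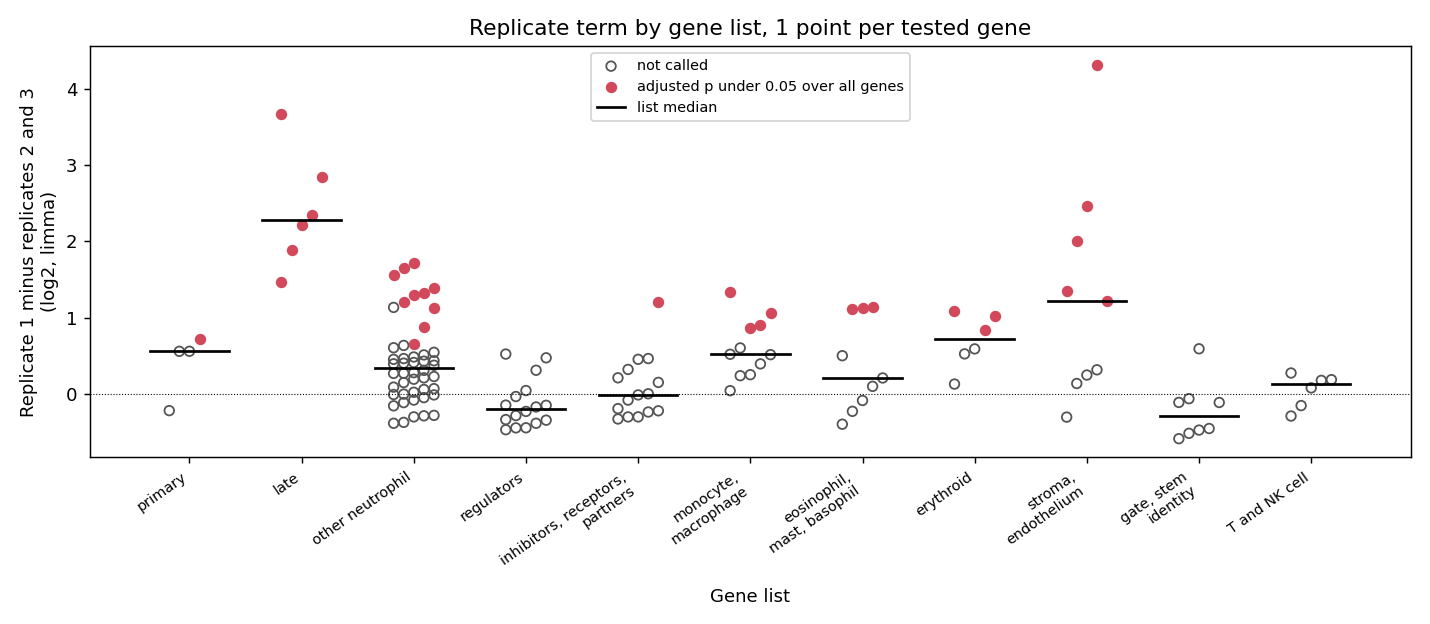
Each point is the limma step from replicates 2 and 3 to replicate 1 (log2) of 1 tested gene, arranged by gene list, with genes past an adjusted p of 0.05 marked. The 6 late genes lie between 1.47 and 3.68, 10 of 48 other neutrophil genes and 5 of 9 stroma and endothelium genes are marked, and none of the 16 regulators is.

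Markers of other cells moved with the replicate number beside the late genes, and the counts below stand against the same 0.58% of all genes called higher. Of the stroma and endothelium list, 5 of 9 tested genes were higher in replicate 1, with a median step of 1.21: the collagen genes Col1a2 (4.32, SE 0.37) and Col1a1 (2.01), the matrix genes Sparc (2.47) and Dcn (1.35), and the chemokine Cxcl12 (1.21). The mean of that list was 5.71 to 7.13 in the 3 arrays numbered replicate 1 and 4.97 to 5.22 in the other 5. Of the monocyte and macrophage list, 4 of 11 were higher (Ly6c2 at 1.33, Vcam1 at 1.06, C1qb at 0.90 and Adgre1 at 0.87), with list means of 6.25 to 6.64 against 5.65 to 5.89. Of the eosinophil, mast cell and basophil list, 3 of 9 were higher (Prg3 at 1.14, Ear6 at 1.12 and Epx at 1.12), and the list means overlapped (8.16 to 8.68 against 8.01 to 8.29). All 3 are eosinophil genes, and no mast cell or basophil gene among the 9 passed. Of the 9 steps, 6 were above 0, and their median was 0.21. Of the erythroid list, 3 of 6 were higher (Klf1 at 1.09, Car1 at 1.02 and Slc4a1 at 0.84), with overlapping means of 7.93 to 8.75 against 7.34 to 8.03, and the globin genes had no probe set matched here. None of 6 B cell, 6 T and NK cell, 5 megakaryocyte or 8 gate and stem cell genes passed, at median steps of 0.35, 0.12, 0.01 and -0.29. Genes at 0 cannot be read from RMA values, which have no true zero. The part of these other cells in the step of the late genes was not tested.

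The calls of the marker lists also depended on which arrays were used. Without both arrays that stood apart, Col1a2 was the only one of the 15 named marker genes to keep its call, and Adgre1, Slc4a1, Col1a1, Dcn and Cxcl12 kept theirs in 7 or 8 of their 14 or 15 alternatives. The remaining named marker genes kept theirs in 11 to 15 of 15 alternatives. Both the stroma list and the late genes had their 3 highest arrays in the order ST-HSC replicate 1, LT-HSC replicate 1 and MPP replicate 1, at list means of 7.13, 5.76 and 5.71 for stroma and 8.68, 8.33 and 7.81 for the late genes. Other lists had MPP replicate 1 above LT-HSC replicate 1. These were the other neutrophil genes (6.36 against 6.22) and the monocyte and macrophage list (6.27 against 6.25). The same held for the eosinophil, mast cell and basophil list (8.64 against 8.16) and the erythroid list (8.33 against 7.93).

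**Figure D5:**
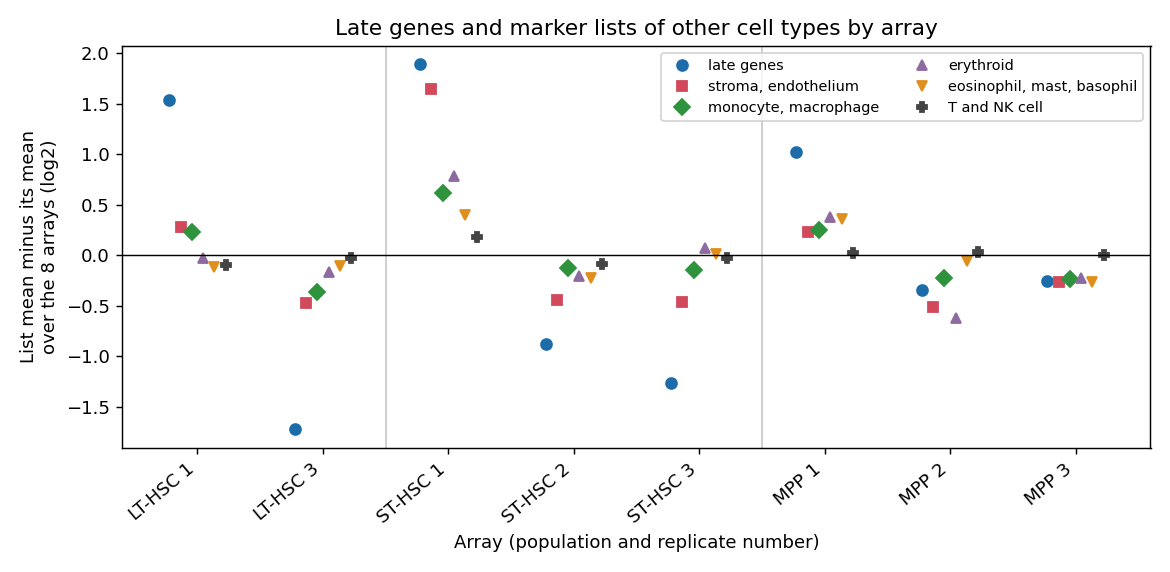
For each of the 8 arrays the mean log2 signal of the late genes and of the marker lists is plotted relative to each list's mean over all arrays. The late genes run from -1.73 in LT-HSC replicate 3 upward, the widest range of the lists shown, while the T and NK cell list stays close to 0. Of the 8 matched T and NK cell genes, 7 have a mean below the 50th percentile of probe sets, and low RMA values compress differences.

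The genes whose array profile was nearest to each group were then listed, by the root mean square distance over the 8 arrays between profiles centred on their own mean. Nearest to the late genes were Chil3 (0.38), Wfdc21 (0.62), Ifitm6 (0.65), Btnl10 (0.68), the fatty acid binding protein gene Fabp4 (0.71) and Stfa2l1 (0.72), where the late genes themselves lay at 0.26 to 0.72 from their own mean and the median gene at 1.30. Chil3, Wfdc21, Ifitm6 and Stfa2l1 are on the neutrophil list, and Btnl10 and Fabp4 are on none. Chil3 measured 6.46 and 4.29 in LT-HSC, 6.89, 4.86 and 4.21 in ST-HSC and 6.04, 5.40 and 5.22 in MPP, with the 3 arrays numbered replicate 1 highest, as for the late genes. Nearest to the primary granule genes were Ms4a3 (0.08), Mvk (0.12), Pidd1 (0.13), Celf1 (0.14), Fen1 (0.14) and Aplf (0.14), with the members at 0.15 to 0.34 and the median gene at 0.37. Ms4a3, a membrane protein known from granulocyte and monocyte progenitors, measured 7.16 and 6.63 in LT-HSC, 7.65, 7.34 and 7.38 in ST-HSC and 7.52, 6.72 and 7.24 in MPP. A flat profile lowers such a distance, so the primary granule list is less selective than the late one.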

How the data were processed

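Total RNA was extracted with Trizol, amplified with the Ovation Pico WTA System V2 and labelled with the Encore Biotin Module, per the labels' protocols, and hybridised to single-colour arrays. The deposited table holds log2 values of 33649 probe sets on 8 arrays, made with RMA per the submitters' processing notes. Neither the RMA version nor the probe annotation is named in the labels. No source states the scale, and log2 was inferred from a range of 2.05 to 12.94. The authors' table gives no detection calls, so a low signal cannot be called present or absent. The number of arrays limits the precision.

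A gene was represented by its probe set with exactly 1 symbol and the highest mean. Genes entered the fits at a mean of 3.88 or more, the 25th percentile over the probe sets. These were 17576 genes, and all 10 members passed. Fits were made with limma 3.58.1 in R 4.3.3 on all 8 arrays: 1 with a mean per population (5 residual degrees of freedom) and 1 with population and replicate number (3 residual degrees of freedom), each with eBayes and Benjamini-Hochberg adjustment over all tested genes, and tested on simulated data. Every adjusted p in the text comes from limma.

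The members, gene lists and tests were chosen with earlier results of these data known. Text names follow a rule: all members, up to 6 called genes per list with the largest difference, up to 3 uncalled ones with the highest mean, and the 6 genes nearest in profile to each member group, leaving out predicted genes, clones, small RNAs, receptor families and antigen receptor segments. Cebpe, Spi1 and Lyz2 lie outside it. Replicate numbers are shared between populations. Deviations from the population mean correlated at 0.15, 0.23 and 0.21 for ST-HSC and MPP arrays of the same number. Those of different numbers correlated at -0.28 to 0.07. The main population fit still treated all arrays as unpaired. The replicate number entered only in the fit of the replicate step and, as a block, in an alternative population fit. For LT-HSC only 2 pairs exist, at 0.54 and 0.47 with ST-HSC and at -0.16 and 0.10 with MPP. With 2 LT-HSC arrays the deviations are mirror images, so these values are not independent. LT-HSC replicate 1 correlated at 0.22 with MPP replicate 2, an array of another number. A pairing of LT-HSC was therefore not established. Promoter sequences come from a RefSeq table of build GRCm38.p6. The alternatives were quantile normalization, median centring, other filters and probe set rules, array weights, the replicate block, medians of members, and arrays left out.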

Additional observations from a re-analysis of the deposited data

Results flagged for a closer look

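For Prtn3 the difference of replicate 1 from the other arrays changed sign between populations. In LT-HSC and MPP it was smaller than the gene's residual SD of 0.21 in the population fit. It was -0.482 in ST-HSC, where replicate 1 (7.85) lay below replicates 2 and 3 (8.40 and 8.27), and -0.18 in MPP, where replicate 1 (8.22) lay below 8.26 and 8.53. In LT-HSC it was 0.0652, with replicate 1 at 8.02 and replicate 3 at 7.96. These differences between populations were not tested, and LT-HSC has 1 array on each side.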

How the results depend on the processing

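Of 194 recomputed results on the groups of genes, 182 were counted as unmoved and 12 as moved. A value counted as unmoved if it shifted by less than its SD over arrays or populations, and a count if within a set ratio. Unmoved results could therefore still change, as the ranges below show. Leaving out all replicate 1 arrays gave 1 member called in MPP against ST-HSC, and the replicate block gave 1 in ST-HSC against LT-HSC. The block restricted to ST-HSC and MPP, added after seeing the data, called none, and the block changed no other member's call. Of the replicate step, leaving out single arrays gave 4 to 7 members and 3 to 15 other neutrophil genes, the lowest without ST-HSC replicate 1. Leaving out both arrays that stood apart, also added after seeing the data, gave 1 and 0, and array weights gave 33 other neutrophil genes. Over all alternatives the count of all genes called for that step ran from 7 to 6243, the latter with array weights in a fit with 3 residual degrees of freedom. For replicate 1 against the other arrays, quantile normalization moved the primary mean of LT-HSC to 0.825, and taking medians moved the late value of ST-HSC to 4.03 and the primary one to 0.516. Without single arrays the late values were 2.77 to 3.16 in ST-HSC and 1.28 to 1.37 in MPP, and the primary ones 0.125 to 0.254 and 0.301 to 0.673. The mean of primary minus late genes in MPP was 2.57 with medians and 3.29 without S100a8 and S100a9. Without single arrays it was 0.474 to 3.21 in LT-HSC, 1.81 to 3.27 in ST-HSC and 1.72 to 2.21 in MPP. The step of Lyz2, uncalled throughout, changed sign with median centring (-0.00482), with array weights (-0.0297) and without single MPP arrays (lowest -0.046, highest 0.132 over all single arrays). The cause of these changes was not tested. Groups of 2 and 3 arrays, amplified RNA and values without background calls limit what the late genes' low levels can show.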
